A study of Homo sapiens with 6 samples.

Results

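The genes described here encode the histone demethylase LSD1 (KDM1A), its relative LSD2 (KDM1B) and the partners with which LSD1 forms the CoREST complex. They were the rows of the deposited count table named KDM1A, KDM1B, RCOR1, RCOR2, RCOR3, HDAC1, HDAC2, PHF21A and HMG20B, which is 9 of 60675 genes. All 9 passed the filter on low counts, as did 16503 genes in all. The samples were HCT116 cells, a line established from a human colorectal carcinoma and labelled wild type in each case, and formed 3 groups of 2 libraries. The first group, siPIR, had a transient knockdown of PIR (Pirin, an iron-binding nuclear protein) with small interfering RNA for 48 h. The second received SP2509, a small-molecule LSD1 inhibitor, at 3 uM for 48 h, and the third was untreated. One label of the siPIR samples lists SP2509 as their treatment, so it is not settled whether those cells received the compound, and no library with a non-targeting siRNA was analysed here. The protocol names a DMSO arm as well, and it is not stated if untreated cells had this solvent.

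PIR itself was counted 37 and 39 times in the siPIR libraries, 377 and 305 times in the SP2509 libraries and 519 and 462 times in the untreated libraries. It was lower in siPIR than in untreated cells at -2.87 on the log2 scale (SE 0.175, edgeR adjusted p = 3.39e-09), the direction its label names. The 6 libraries held between 22622441 and 28816590 counts. The siPIR libraries stood apart from the other 4 in base composition: the mean GC content of the counted genes, weighted by their counts, was 42.3% and 42.8% in siPIR, 48.3% and 48.5% in SP2509, and 48.7% and 48.5% in untreated libraries. Across the 16345 tested genes with a known GC content, the siPIR change against untreated cells ran with GC content at a Spearman rho of -0.883, and the SP2509 change at -0.0887. This is a description over genes that share the same libraries. PIR has a GC content of 51.4%, and other genes within 1 percentage point of it had a median siPIR change of -0.91. With an offset that takes out each library's trend with GC content and transcript length, PIR stood at -1.94 (edgeR adjusted p = 3.26e-09). Mitochondrial ribosomal RNA took 6.33% and 6.93% of counts in the SP2509 libraries, against 1.63% and 1.6% in the untreated libraries; its part in the results was not tested. Of 6 epithelial markers, none was at 0 in 5 libraries and 1 was at 0 in SP2509 replicate 2. Their summed level was 1050 and 1130 CPM (counts scaled to the library total) in siPIR, 4500 and 4460 in SP2509, and 4550 and 4510 in untreated libraries. Marker sums of fibroblasts (6 genes), leukocytes (5 genes) and endothelium (4 genes) did not exceed 32.6, 1.15 and 2.29 CPM in any library. The part of these marker levels in the results was not tested.

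LSD1 removes methyl groups from lysine 4 of histone H3 with the help of a flavin cofactor. In the CoREST complex a scaffold of the RCOR family joins LSD1 to the deacetylase HDAC1 or HDAC2, so that demethylation and deacetylation act on the same nucleosome, and transcription factors such as REST, GFI1 and the SNAI proteins bring the complex to genes that are to be silenced. LSD1 is studied as a drug target in acute leukaemia and in carcinomas, among them colorectal cancer, and KDM1B acts within gene bodies without needing an RCOR scaffold.

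The stretches just upstream of 3 members are shown because these genes differed in direction under SP2509: KDM1A and HDAC1 were lower and KDM1B was higher. Each runs 5′ to 3′ on the plus strand, is taken from RefSeq (GRCh38.p14), and ends before the first annotated exon. Capitals mark matches on either strand to the SP1 motif GGGCGG, the E2F motifs TTTCCCGC and TTTGGCGC, and the CCAAT box.
KDM1A, chr1:23019218-23019442: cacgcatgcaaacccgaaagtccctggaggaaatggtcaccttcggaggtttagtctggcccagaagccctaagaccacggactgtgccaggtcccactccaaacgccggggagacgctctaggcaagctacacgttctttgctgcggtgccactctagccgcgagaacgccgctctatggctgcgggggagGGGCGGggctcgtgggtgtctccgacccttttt
KDM1B, chr6:18155172-18155328: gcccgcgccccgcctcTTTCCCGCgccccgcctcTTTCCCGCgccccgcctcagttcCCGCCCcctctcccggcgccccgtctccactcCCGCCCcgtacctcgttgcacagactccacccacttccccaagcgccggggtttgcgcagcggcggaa
HDAC1, chr1:32291833-32292082: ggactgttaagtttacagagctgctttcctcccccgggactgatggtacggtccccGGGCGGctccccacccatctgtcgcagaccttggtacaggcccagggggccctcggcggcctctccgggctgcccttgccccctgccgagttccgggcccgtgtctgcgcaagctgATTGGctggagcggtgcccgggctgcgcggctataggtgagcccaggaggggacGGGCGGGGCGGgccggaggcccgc
The KDM1A stretch held 1 SP1 match, the KDM1B stretch 2 SP1 matches and 2 E2F matches, and the HDAC1 stretch 3 SP1 matches, of which a pair overlap, and 1 CCAAT box read on the minus strand. RefSeq start-site windows of 250 bases were at hand for 8 of the 9 members (11 windows) and for 35116 promoters in all. Of those 35116 promoters, 42.6% held the SP1 motif, 32.0% the CCAAT box and 1.93% either E2F motif. An SP1 match lay in at least 1 window of KDM1A, KDM1B, RCOR1, RCOR3, HDAC1, PHF21A and HMG20B, and in none of HDAC2. The 42.6% counts single windows, whereas RCOR3 and PHF21A had more than 1 window each. The 11 windows held between 57.6% and 84.0% GC, where the median of all promoters was 58.0%. The SP1 motif consists of G and C alone, and the part of GC content in these matches was not tested. CCAAT boxes lay in windows of RCOR1, RCOR3, HDAC1 and HMG20B, and E2F matches in the window of KDM1B alone. None of the 11 windows held the letters searched for ETS (CCGGAAG), NRF1, CRE (TGACGTCA), AP-1 (TGANTCA) or the C/EBP-ATF composite (TGATGNAAT), which were found in 8.52%, 5.07%, 1.65%, 6.57% and 0.888% of all promoters. A match is a description of letters and not of a bound site.

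In untreated cells the most abundant member per length of exon was HDAC1, a zinc-dependent deacetylase, at 60.2 ± 0.778 CPM per kb (SD, n = 2). KDM1A followed at 35.6 ± 0.0707 CPM per kb and HMG20B, a DNA-binding HMG-box subunit, at 33.2 ± 0.919. HDAC2 stood at 12 ± 0.354, RCOR1 at 9.83, KDM1B at 7.43, RCOR2 at 4.95, PHF21A at 3.47 and RCOR3 at 2.53 CPM per kb. No neighbours in that order overlapped between their 2 libraries. In SP2509 cells HDAC1 was again first, at 47.4 CPM per kb, followed by HMG20B (27.8), KDM1A (26.4), KDM1B (14.5), HDAC2 (13.6) and RCOR1 (13.5), and the last 2 of these overlapped. RCOR2 (11.9), RCOR3 (6.44) and PHF21A (5.14) closed the order. In siPIR cells HDAC2 was first, at 38.9 CPM per kb, HDAC1 (32.4) overlapped KDM1A (30.5), and HMG20B (1.38) and RCOR2 (0.352) were last. The siPIR changes ran with GC content (38.2% for HDAC2, 65.7% for HMG20B and 62.1% for RCOR2), and its part in this order was not tested. Dividing by the length of the longest transcript, a choice made after seeing the data, put KDM1A at 47 and HMG20B at 44.2 CPM per kb in SP2509 cells, so that these 2 changed places. It also put HDAC2 (21.4) beside KDM1B (21.2), with overlap, and RCOR3 (13.8) above RCOR2 (12.6) in SP2509 cells, and KDM1A (54.4) beside HDAC1 (53.4), with overlap, in siPIR cells. In untreated cells KDM1B (10.9) then overlapped RCOR1 (10.6), and RCOR3 (5.41) overlapped RCOR2 (5.2) and stood above PHF21A (4.34). Below, CPM values are scaled by TMM (trimmed mean of M-values, a library scaling factor) and are not divided by length, so they compare libraries and not genes.

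**Figure D1:**
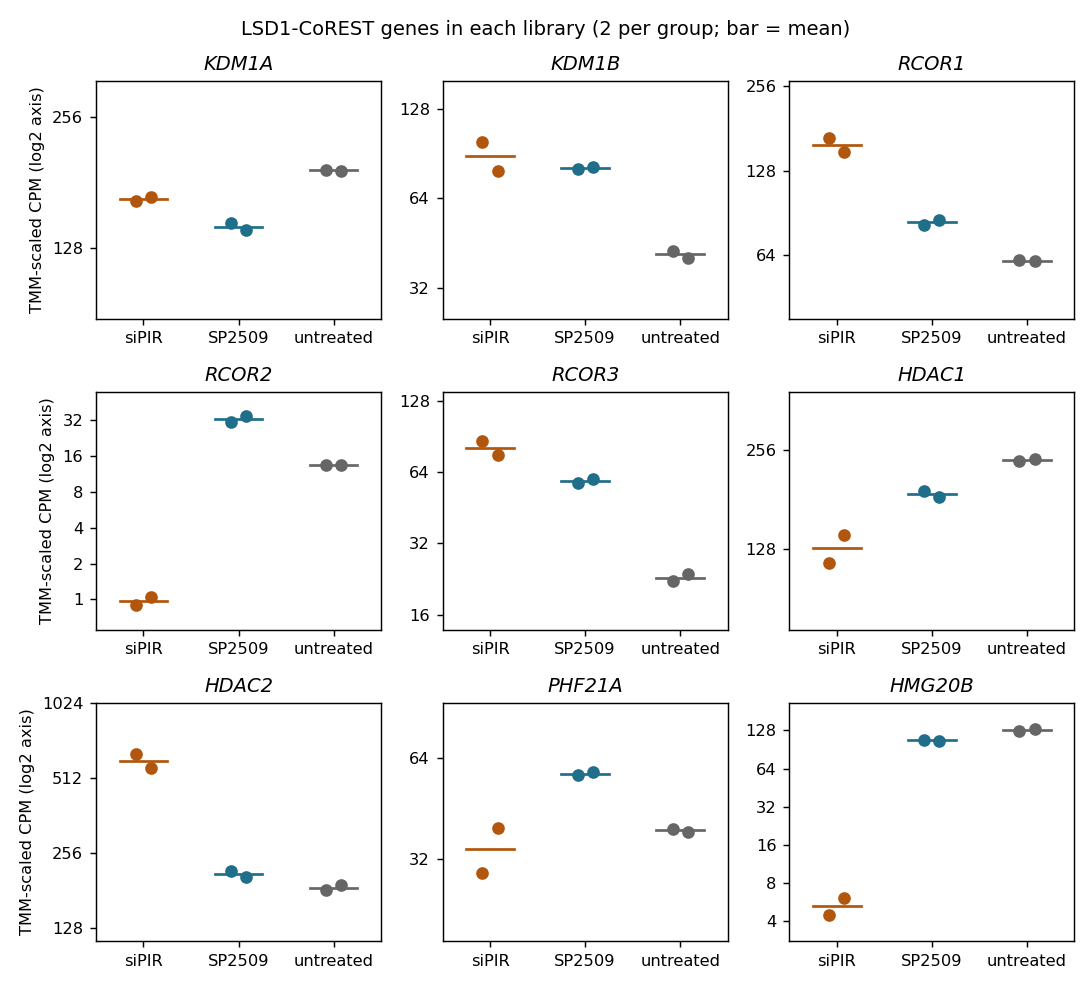
Level of each of the 9 genes in each library, as TMM-scaled CPM on a log2 axis whose range differs between panels, with siPIR, SP2509 and untreated libraries from left to right (2 points a group; short lines are means). RCOR2 and HMG20B lie far lower in siPIR than in the other groups (0.965 and 5.32 CPM on average), and RCOR3 and KDM1B lie lowest in untreated cells (23 and 41.6 CPM).

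The first comparison asks what the LSD1 inhibitor does to the transcripts of its own target complex. In cells given SP2509, KDM1A fell to 0.744 of its untreated level, while KDM1B, RCOR3 and RCOR2 rose, RCOR3 and RCOR2 by more than 2-fold. RCOR1 and PHF21A rose less, HDAC1 and HMG20B fell slightly, and HDAC2 did not pass the test. Thus 8 of the 9 members passed an adjusted p of 0.05 in edgeR's quasi-likelihood test, 5 higher and 3 lower, where 68.6% of all 16503 genes passed (33.5% higher and 35.1% lower). Most genes were called in these libraries and the members are only 9, and no test compared their share with that of all genes. The values of both groups did not overlap for 9 of 9 members, against 86.9% of all genes. Over the members the log2 fold changes had a median of 0.46, and over all genes of -0.04. The lower and upper quartiles of all genes were -0.74 and 0.6. KDM1A, RCOR1, HDAC1, HDAC2, PHF21A and HMG20B lay between these quartiles, and KDM1B, RCOR2 and RCOR3 above them. With an offset that takes out each library's trend with GC content and transcript length, 7 members were called, 5 higher and 2 lower, where 72.6% of all genes were called (38.8% higher and 33.7% lower). Nothing in the labels says that the 2 libraries of a group came from separate cultures, so all p-values measure a spread that may be technical. RNA from bulk cells cannot tell fewer expressing cells from less RNA per cell.

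KDM1A (ENSG00000004487; chr1:23019443-23083689 on GRCh38, plus strand), the target of SP2509, stood at 146 and 141 CPM in the SP2509 libraries, against 194 and 193 CPM in the untreated libraries. Both SP2509 libraries lay below both untreated ones. The means were 144 ± 3.45 and 193 ± 0.596 CPM (SD, n = 2 each), or -0.43 on the log2 scale (SE 0.092, edgeR adjusted p = 0.00117). KDM1B (ENSG00000165097; chr6:18155329-18223853, plus strand), the other flavin-dependent histone demethylase of the genome, was measured at 80.4 and 81.5 CPM in SP2509 cells, against 42.6 and 40.5 CPM in untreated cells. The groups were far apart, and the 2 libraries within each differed little. KDM1B was 1.95-fold higher (log2 fold change 0.96, SE 0.114, edgeR adjusted p = 8.96e-06). The transcripts of the 2 LSD-family enzymes thus moved in opposite directions under the compound.

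All 3 RCOR scaffolds were called higher in the TMM-scaled fit, and RCOR1 was not called under total-count scaling. RCOR1 (ENSG00000089902; chr14:102592661-102730576, plus strand), the founding CoREST protein, had 81.8 and 85.5 CPM in SP2509 cells, against 61.3 and 60.7 CPM in untreated cells. The groups did not overlap, and the difference was 0.46 on the log2 scale (SE 0.0986, edgeR adjusted p = 0.00119). RCOR2 (ENSG00000167771; chr11:63911221-63916844, minus strand), a paralogue best known from embryonic stem cells and the developing nervous system, had 30.7 and 34.5 CPM in SP2509 cells, against 13.6 and 13.5 CPM in untreated cells. Its SP2509 libraries were both more than 2-fold above its untreated ones, at 1.27 on the log2 scale (SE 0.109, edgeR adjusted p = 5.46e-07). RCOR3 (ENSG00000117625; chr1:211258377-211316385, plus strand), whose protein in mouse blood cell precursors competes with RCOR1 for LSD1, stood at 57.4 and 59.6 CPM in SP2509 cells, against 22.1 and 23.8 CPM in untreated cells. The gap between the groups was many times the spread within them. RCOR3 was 2.55-fold higher (log2 fold change 1.35, SE 0.107, edgeR adjusted p = 2.8e-07), the largest rise among the 9 members in this fit, whereas with the GC and length offset RCOR2 (1.55) stood above RCOR3 (1.39).

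Of the deacetylases, HDAC1 (ENSG00000116478; chr1:32292086-32333635, plus strand) had 192 and 184 CPM in SP2509 cells, against 237 and 241 CPM in untreated cells. It lay lower in both SP2509 libraries, at -0.35 on the log2 scale (SE 0.108, edgeR adjusted p = 0.0121). That call was lost when any 1 of the 4 libraries compared was left out (edgeR adjusted p between 0.0647 and 0.118). HDAC2 (ENSG00000196591; chr6:113933028-114011308, minus strand), its close paralogue, had 217 and 205 CPM in SP2509 cells, against 182 and 190 CPM in untreated cells. The values did not overlap but stood close, and the log2 fold change of 0.18 did not pass the test (SE 0.102, edgeR adjusted p = 0.129). HDAC2 shares 69 exonic bases with the antisense gene HDAC2-AS2, and the strand setting of the counting is not given.

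PHF21A (ENSG00000135365; chr11:45929323-46121178, minus strand), also called BHC80, reads unmethylated lysine 4 of histone H3, the product of LSD1. It had 56.7 and 58.2 CPM in SP2509 cells, against 39.3 and 38.5 CPM in untreated cells. Both SP2509 libraries were higher, at 0.56 on the log2 scale (SE 0.124, edgeR adjusted p = 0.00135). HMG20B (ENSG00000064961; chr19:3572777-3579088, plus strand), also called BRAF35, had 108 and 106 CPM in SP2509 cells, against 126 and 131 CPM in untreated cells. It was lower in both SP2509 libraries, at -0.26 on the log2 scale, and barely passed the test (SE 0.107, edgeR adjusted p = 0.0485). The call was lost when any 1 of the 4 libraries compared was left out, and the sign turned to 0.1 (edgeR adjusted p = 0.237) with an offset for GC content and length. HMG20B also shares 369 exonic bases, 9.57% of its own, with MFSD12 on the opposite strand, a gene that had a log2 fold change of -0.58 (edgeR adjusted p = 0.000138), and without the strand setting it is not known whether reads of the 2 genes were kept apart where they overlap.

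**Figure D2:**
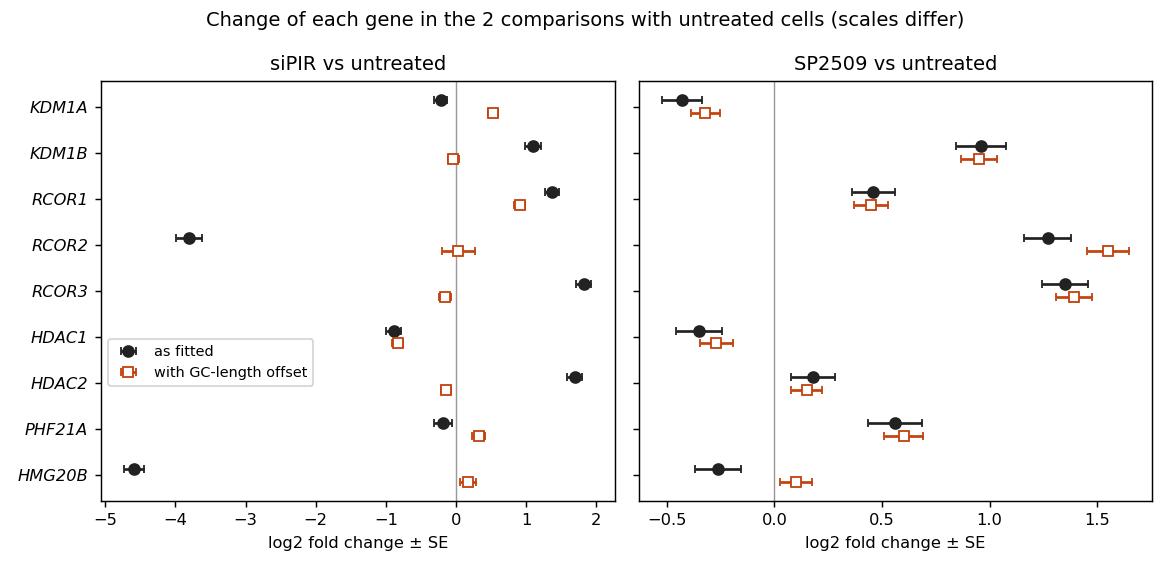
Log2 fold change of each of the 9 genes with its standard error, for siPIR against untreated cells and for SP2509 against untreated cells, from the edgeR fit (filled circles) and with the offset for GC content and length (open squares), on scales that differ between panels. The SP2509 values hardly move with the offset except for HMG20B and RCOR2 (1.27 and 1.55), whereas the siPIR values of RCOR2, RCOR3, KDM1B, HDAC2 and HMG20B go to near 0.

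Which members count as higher depends in part on how libraries are scaled. Scaling by total counts put the median of all genes at -0.43 instead of -0.04 and the share of calls that were higher at 28.3% instead of 48.8%, and upper-quartile scaling put them at -0.27 and 36.2%. Under total counts RCOR1 had a log2 fold change of 0.07 (edgeR adjusted p = 0.563) and PHF21A of 0.17 (edgeR adjusted p = 0.251). Relative to the median of all genes they stood at 0.49 and 0.6. A scaling factor shifts all genes of a library alike, so such relative values hardly change with the scaling by construction. HDAC2 turned to -0.21 under total counts and to -0.05 under upper-quartile scaling. KDM1A, KDM1B, RCOR2 and RCOR3 held their direction and their call in all 19 alternatives run, KDM1A between -0.82 and -0.32, KDM1B between 0.57 and 1.01, RCOR2 between 0.88 and 1.55, and RCOR3 between 0.96 and 1.4.

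Ratios of 2 members within a library do not depend on that scaling. The KDM1A to KDM1B count ratio was 1.66 and 2.12 in siPIR, 1.82 and 1.74 in SP2509, and 4.55 and 4.76 in untreated libraries. Both other groups lay below the untreated libraries, by a log2 difference of -1.39 for SP2509 and -1.31 for siPIR. The HDAC1 to HDAC2 ratio was 0.181 and 0.252 in siPIR, 0.883 and 0.899 in SP2509, and 1.3 and 1.27 in untreated libraries. This ratio, too, was highest in the untreated libraries, and the log2 difference from them was -0.53 in SP2509 and -2.59 in siPIR. The RCOR1 to RCOR3 ratio was 1.92 and 1.98 in siPIR, 1.43 and 1.43 in SP2509, and 2.77 and 2.55 in untreated libraries, with log2 differences from untreated cells of -0.45 in siPIR and -0.89 in SP2509. The groups did not overlap in any of these 6 comparisons with untreated cells, and each exact two-sided permutation test gave p = 0.333, the smallest that 2 against 2 libraries allow. The GC contents of the paired genes differ by 9.2, 9.3 and 9.1 percentage points. With the GC and length offset the siPIR changes against untreated cells were 0.53 for KDM1A and -0.04 for KDM1B, and 0.91 for RCOR1 and -0.16 for RCOR3, so that the siPIR differences of these 2 ratios turn sign. For HDAC1 (-0.83) and HDAC2 (-0.14) the siPIR difference keeps its sign and is smaller.

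Per length, RCOR1 made up 73.1% and 73.5% of all RCOR reads in siPIR, 42.9% and 41.8% in SP2509, and 57.1% and 56.5% in untreated libraries. RCOR2 made up 0.882% and 1.16% in siPIR, 36.5% and 38.3% in SP2509, and 28.8% and 28.4% in untreated libraries. RCOR3 made up 26% and 25.3% in siPIR, 20.6% and 19.9% in SP2509, and 14.1% and 15.1% in untreated libraries. The order of RCOR2 and RCOR3 rests on the exon length used: per length of the longest transcript RCOR3 stood above RCOR2 in SP2509 (13.8 and 12.6 CPM per kb) and overlapped it in untreated cells. Of plain RCOR reads, RCOR2 took 18.1% and 19.2% in SP2509 and 14.1% and 13.8% in untreated libraries, and RCOR3 took 33.8% and 33.2% in SP2509 and 22.8% and 24.3% in untreated libraries. In SP2509 cells the RCOR transcripts were spread more evenly over the 3 genes, and RCOR1 no longer made up most of them, and in siPIR cells RCOR2, whose GC content is 62.1%, was close to absent.

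**Figure D3:**
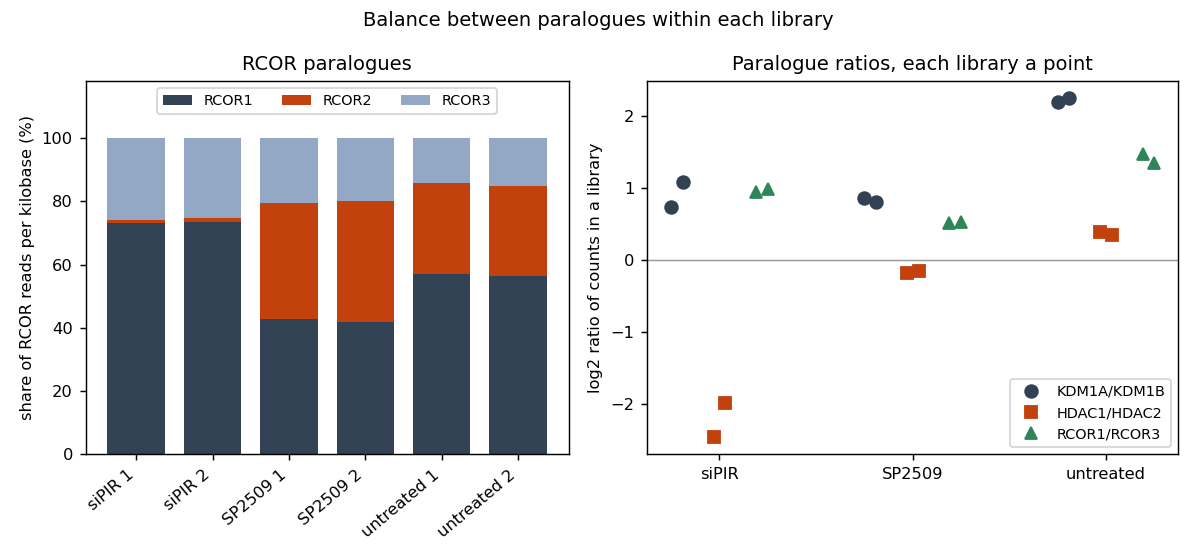
Left, bars give the share of each RCOR gene among RCOR reads per kb of exon, in percent, in each siPIR, SP2509 and untreated library; right, points give the log2 count ratio of each paralogue pair in a library. The KDM1A to KDM1B ratio is highest in untreated libraries (4.55 and 4.76), and the RCOR2 share is highest in SP2509 libraries (36.5% and 38.3%).

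The second comparison asks what PIR knockdown changes. In the siPIR libraries RCOR3, HDAC2, RCOR1 and KDM1B were higher than in untreated cells, HMG20B, RCOR2, HDAC1 and KDM1A were lower, and PHF21A did not pass the test. That is 8 of 9 members called (4 higher and 4 lower). Of all genes 86.1% were called (39.3% higher and 46.9% lower), so the count of members is near the background. The groups did not overlap for 8 of the 9, against 93.1% of all genes. The median was -0.18 over the members and -0.28 over all genes. With the GC and length offset 4 members were called, 3 higher and 1 lower, where 64% of all genes were called (33.4% higher and 30.6% lower). Under total-count scaling the median of all genes was -0.89, and 33.9% instead of 45.6% of calls were higher. The offset also removes any biological change that runs with GC content, and the GC trend and the knockdown cannot be told apart with these libraries.

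The 4 members that rose in siPIR were the 4 with the lowest GC content. RCOR3 (36.2% GC) had 86.9 and 75.2 CPM in siPIR, against 22.1 and 23.8 CPM in untreated cells, and HDAC2 (38.2% GC) had 641 and 561 CPM in siPIR, against 182 and 190 CPM. Both were far above the untreated range, with log2 fold changes of 1.82 (SE 0.108, edgeR adjusted p = 2.55e-09) and 1.69 (SE 0.104, edgeR adjusted p = 3.63e-09). The medians of other genes within 1 percentage point of their GC content were 2.06 and 1.87, and with the offset RCOR3 stood at -0.16 (edgeR adjusted p = 0.0887) and HDAC2 at -0.14 (edgeR adjusted p = 0.0822). KDM1B (41.6% GC) had 99 and 79.2 CPM in siPIR, against 42.6 and 40.5 CPM in untreated cells. Its siPIR libraries differed from each other more than its untreated ones but stayed above them, at 1.1 (SE 0.115, edgeR adjusted p = 8.52e-07), with a same-GC median of 1.26 and an offset value of -0.04 (edgeR adjusted p = 0.652).

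The 2 members with the highest GC content were far lower in siPIR. HMG20B (65.7% GC) had 4.49 and 6.14 CPM in siPIR, against 126 and 131 CPM in untreated cells, and RCOR2 (62.1% GC) had 0.888 and 1.04 CPM in siPIR, resting on 17 and 20 counts, against 13.6 and 13.5 CPM. Neither came near its untreated range, with log2 fold changes of -4.59 (SE 0.14, edgeR adjusted p = 1.7e-11) and -3.81 (SE 0.185, edgeR adjusted p = 4.21e-10). Genes of the same GC content had medians of -5.44 and -4.08, and with the offset HMG20B stood at 0.17 (edgeR adjusted p = 0.206) and RCOR2 at 0.03 (edgeR adjusted p = 0.913). MFSD12, which overlaps HMG20B, had a log2 fold change of -4.32, and 0.95 with the offset.

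RCOR1 and HDAC1 kept their direction and call with the offset. RCOR1 (45.3% GC) had 167 and 149 CPM in siPIR, against 61.3 and 60.7 CPM in untreated cells, well apart, at 1.37 (SE 0.0994, edgeR adjusted p = 1.93e-08). Its same-GC median was 0.45, and its offset value 0.91 (edgeR adjusted p = 1.29e-09). HDAC1 (47.5% GC) had 116 and 141 CPM in siPIR, against 237 and 241 CPM in untreated cells. Both siPIR libraries were lower, at -0.89 (SE 0.109, edgeR adjusted p = 4.42e-06), with a same-GC median of 0.05 and an offset value of -0.83 (edgeR adjusted p = 6.65e-09).

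KDM1A (50.8% GC) had 164 and 168 CPM in siPIR, against 194 and 193 CPM in untreated cells. It was lower in both siPIR libraries, by a small margin, at -0.22 (SE 0.0921, edgeR adjusted p = 0.0395). Genes of its GC content had a median of -0.76, and with the offset KDM1A turned to 0.53 (edgeR adjusted p = 7.47e-07), so its direction rests on that choice. The call at -0.22 was also lost when any 1 untreated or SP2509 library was left out. PHF21A (50.3% GC) had 29.1 and 39.5 CPM in siPIR, against 39.3 and 38.5 CPM in untreated cells. The groups overlapped, and its value of -0.18 (SE 0.128, edgeR adjusted p = 0.196) turned to 0.32 with the offset (edgeR adjusted p = 0.00504), beside a same-GC median of -0.62. PHF21A was called lower under total counts (-0.79, edgeR adjusted p = 4.51e-05), under upper-quartile scaling (-0.35, edgeR adjusted p = 0.0247) and without siPIR replicate 2 (-0.39, edgeR adjusted p = 0.000792), and stood at 0.04 without siPIR replicate 1.

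**Figure D4:**
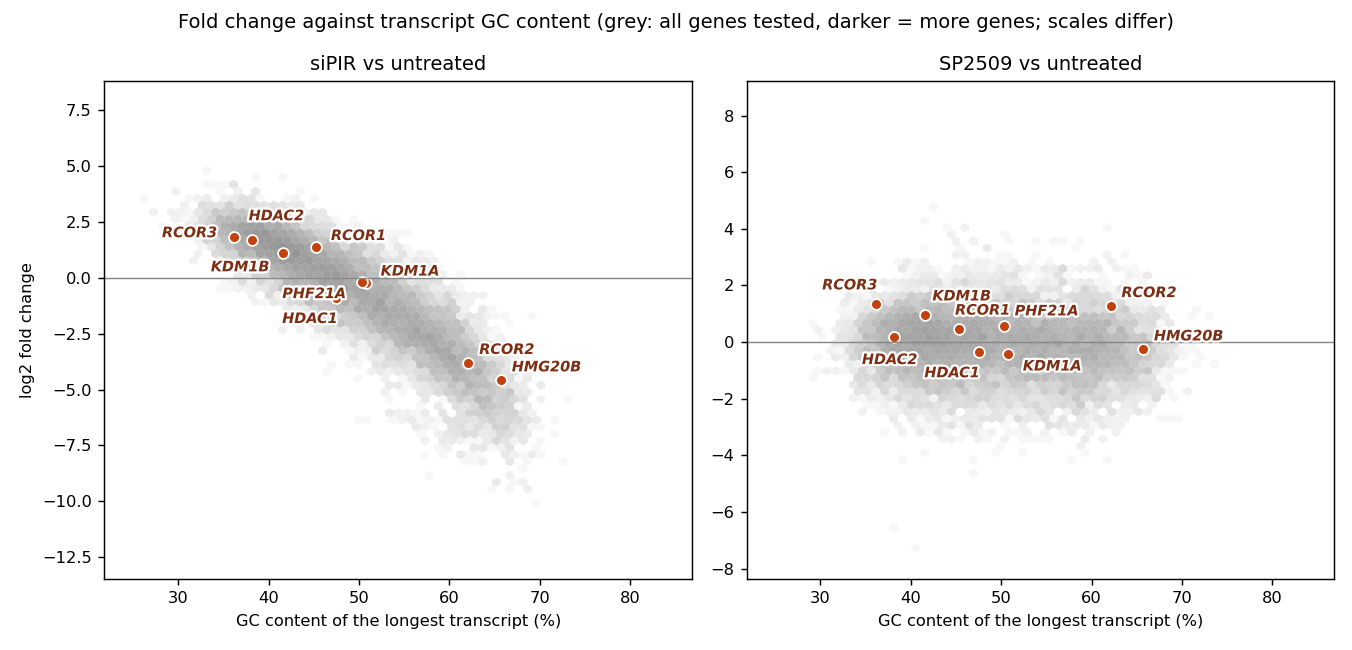
Log2 fold change of siPIR against untreated cells (left) and of SP2509 against untreated cells (right) plotted against transcript GC content in percent, with tested genes in grey (darker where more genes lie), the 9 members named, and different vertical scales. In siPIR the members lie along the slope of all genes (rho -0.883), with RCOR1, KDM1A and PHF21A above their same-GC medians (0.45, -0.76 and -0.62) and HDAC1 below its own (0.05), and in SP2509 there is little slope (rho -0.0887).

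Set directly against SP2509, siPIR had 7 members called, 3 higher and 4 lower, where 84.3% of all genes were called (38.8% higher and 45.5% lower). The groups did not overlap for 8 of the 9, against 91.8% of all genes. RCOR1, RCOR3 and HDAC2 were higher in siPIR (log2 fold changes of 0.92, 0.47 and 1.51), and RCOR2, HMG20B, PHF21A and HDAC1 were lower (-5.07, -4.33, -0.75 and -0.55), with edgeR adjusted p of at most 0.000879. KDM1A had 164 and 168 CPM in siPIR, against 146 and 141 CPM in SP2509, and its 0.21 missed the threshold (SE 0.0925, edgeR adjusted p = 0.0521). KDM1A passed it, as higher in siPIR, in 9 of 19 alternatives, among them RLE scaling (0.33, edgeR adjusted p = 0.00648), and stood at -0.02 under total counts. KDM1B had overlapping values in both groups, at 0.14 (SE 0.113, edgeR adjusted p = 0.262). With the offset 8 members were called, 2 higher and 6 lower, where 69.2% of all genes were called (32.9% higher and 36.3% lower). There RCOR1, HDAC1, PHF21A and RCOR2 kept their sign at 0.45, -0.57, -0.28 and -1.52, whereas RCOR3 turned to -1.56, HDAC2 to -0.3 and HMG20B to 0.07, and KDM1A and KDM1B stood at 0.85 and -0.99. This comparison shares its libraries with both others, so it adds no independent evidence to them.

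The genes whose profile over the 6 libraries lay nearest to that of KDM1A were SRP14, DSN1, ADGRA3, GSTO1 and TPM3. Their root-mean-square distance from KDM1A on the centred log2 CPM scale was between 0.0379 and 0.0589, where the median of the 9807 genes compared was 0.867. Among the complex, HDAC1 (0.35) and PHF21A (0.477) were nearest to KDM1A, and HMG20B (2.11) and RCOR2 (2.18) were farthest. These distances include the siPIR libraries, where changes follow GC content.

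Around the complex, 9 lists of partners, related complexes and target genes were counted. Of all 16503 genes tested, 33.5% were higher and 35.1% lower under SP2509, and under total counts 3363 were higher and 8527 lower. Of the 21 CoREST partners (factors that bind or recruit the complex), 18 were tested; under SP2509, 9 were higher and 3 lower, with a median log2 fold change of 0.36 beside -0.04 for all genes, though under total counts 5 were higher and 6 lower. SNAI2, a repressor that drives epithelial to mesenchymal change, had 12.7 ± 0.663 CPM in SP2509 cells and 0.684 ± 0.207 CPM in untreated cells (SD, n = 2 each), or 4.18 on the log2 scale (SE 0.204, edgeR adjusted p = 5.88e-09). GTF2I, a general transcription factor with near-identical copies that make its counts uncertain, was lower at -1.07. REST, which recruits CoREST to neuronal genes, did not pass the test at 0.18 (edgeR adjusted p = 0.205). Of 25 neuronal target genes of REST and CoREST, 16 were tested, 0 were higher and 10 were lower, with a median of -0.85, and none was higher and 13 were lower under total counts. Among those averaging a log2 CPM of 1 or more the largest fall was in BDNF, a neurotrophin, with 25.3 ± 3.4 CPM in SP2509 cells and 110 ± 7.98 CPM in untreated cells (SD, n = 2 each; log2 fold change -2.12, SE 0.145, edgeR adjusted p = 8.91e-08). SNAP25, a synaptic membrane protein below that average and named after its value was seen, was lower at -3.24 (edgeR adjusted p = 0.000728). With the GC offset 2 of these 16 were higher and 10 lower (median -0.64), where 38.8% of all genes were higher and 33.7% lower. The median GC content was 60.4% for these 16 genes and 48.5% for all genes tested.

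The other lists are given under SP2509 beside the 33.5% of all genes that were higher and the 35.1% that were lower. Of these lists NuRD lay nearest to both shares, and no test compared the lists. Under total counts 3363 of the 16503 genes tested were higher and 8527 lower. In NuRD, a nucleosome remodelling complex, 5 of 12 genes were higher and 5 lower (median -0.09), with GATAD2B at 0.81 and the histone chaperone RBBP7 at -1.78, and under total counts 1 was higher and 7 lower (median -0.48). In SIN3, 9 of 13 were higher and 1 lower (median 0.37), with ING1 at 0.89 and SUDS3 at -0.69, though under total counts 3 were higher and 3 lower. Of 10 genes of MiDAC and other class I deacetylase complexes, 6 were higher and 1 lower (median 0.64), with the corepressor NCOR1 at 1.13 and TRERF1 at -1.42, and under total counts 5 were higher and 4 lower. Of 14 enzymes and subunits that set or erase lysine 4 methylation, 7 were higher and 3 lower (median 0.29), with the methyltransferase KMT2B at 1.24 and the scaffold MEN1 at -0.83, and under total counts 4 were higher and 6 lower. Of 6 genes of LSD1 turnover, 3 were higher and 1 lower (median 0.38), with the ubiquitin ligase subunit FBXW7 at 1.49 and JADE2, a ligase reported to act on LSD1, at -0.51, and under total counts 2 were higher and 2 lower. Of 10 genes of flavin supply and related amine oxidases, 8 were tested, 3 higher and 5 lower (median -0.46), with spermine oxidase SMOX at 1.62 and monoamine oxidase MAOB at -1.05, and the counts were the same under total counts. Of 3 genes known to respond to LSD1 inhibitors in leukaemia cells, 1 was tested, and ITGAM did not pass at 0.34 (edgeR adjusted p = 0.485). ITGAM had at most 13 counts in any library, so its values lie near the floor.

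**Figure D5:**
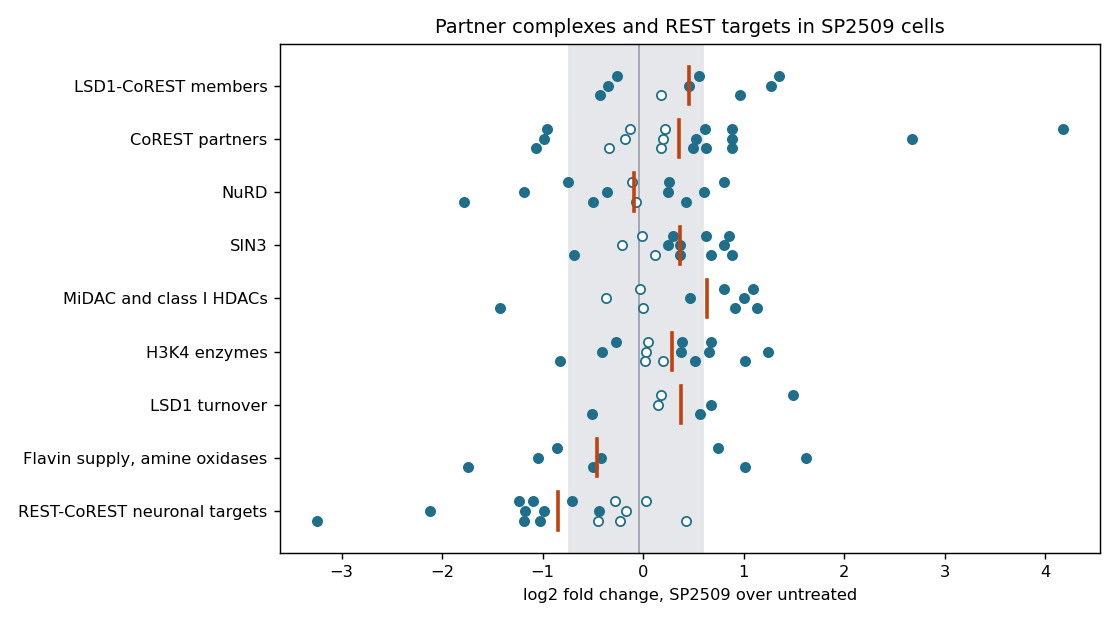
Log2 fold change of SP2509 against untreated cells for every tested gene of the 9 members and of 8 lists (the inhibitor response list is not drawn), with filled points for genes called in edgeR at an adjusted p of 0.05 and a line at the list's median; the shaded band spans the middle part of all tested genes, between -0.74 and 0.6. The neuronal target genes sit lowest (median -0.85), and the genes of MiDAC and class I deacetylases highest (median 0.64).

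In siPIR against untreated cells the counts of several lists changed with the GC offset. The share of all genes called was 39.3% higher and 46.9% lower, and with the offset 33.4% higher and 30.6% lower. NuRD and the lysine 4 enzymes lay near these shares, several other lists did not, and no test compared the lists. The neuronal targets, with a median GC of 60.4%, had 2 higher and 12 lower of 16 (median -3.22), and with the offset 2 higher and 3 lower (median -0.26). In that list GAD1, which makes the transmitter GABA, was higher at 1.04 and 1.27 with the offset, and CPLX1, a synaptic protein, was held by 2 and 2 counts in siPIR libraries, against 264 and 268 in untreated libraries. CPLX1 in siPIR was thus 1.33% of its untreated level (exact 95% interval 0.362% to 3.43%, counting error only), and with the offset, at -1.03, it was not called (edgeR adjusted p = 0.154; 67.5% GC). The flavin and amine oxidase genes had 2 higher and 6 lower of 8 (median -3.06), and with the offset 2 higher and 3 lower, with the kinase RFK at 2.51 (offset 0.88) and the riboflavin transporter SLC52A2 at -6.46 (offset -1.66). The CoREST partners had 10 higher and 7 lower (median 0.59), and with the offset 12 higher and 0 lower (median 0.84). Of these, SNAI2 was higher at 2.9 (SE 0.237, edgeR adjusted p = 6.73e-08; offset 1.74), REST was higher at 2.43 (offset 0.89), and SNAI3 was held by 0 and 2 counts in siPIR libraries, against 132 and 108 in untreated libraries, or 1.48% of its untreated level (exact interval 0.178% to 5.39%). With the offset SNAI3 (65.4% GC) was not called, at -1.37 (edgeR adjusted p = 0.174).

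The remaining lists gave mixed counts in siPIR. NuRD had 4 higher and 6 lower of 12 (with the offset 4 and 4), with the subunits MBD2 at 1.52 (offset 1.17) and MBD3 at -5.78 (offset -1.92). SIN3 had 7 higher and 4 lower of 13 (with the offset 8 and 3), with ARID4B at 2.25 (offset 0.6) and BRMS1 at -4.07 (offset -0.32). The MiDAC and class I list had 2 higher and 7 lower of 10 (with the offset 6 and 2), with TBL1XR1 at 2.42 (offset 0.14). The lysine 4 enzymes had 6 higher and 8 lower of 14 (with the offset 5 and 5), with KMT2C at 1.21 (offset 0.63) and MEN1 at -4.44 (offset -1.45). The LSD1 turnover list had 5 higher and 1 lower of 6 (with the offset 4 and 0), with FBXW7 at 2.19 (offset 1.85) and JADE2 at -1.92, which turned to 0.06. ITGAM, with at most 13 counts in any library, was lower at -3.6 (edgeR adjusted p = 0.00187), and with the offset it was not called at -2.17.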

How the data were processed

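RNA was measured in 6 HCT116 libraries, prepared with a directional kit per the labels' protocols. The authors deposited 1 table of estimated counts per Ensembl gene, with 11% of its values fractional. Per the submitters' processing notes, the tools were HISAT2, featureCounts and Subread 1.6.2, with FastQC 0.11.8, Trimmomatic 0.32 and edgeR 3.26.4, on GRCh38. The sources used here do not give the strand setting, the annotation release or how fractions arose.

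Sample titles gave the groups. Counts were rounded, filtered with filterByExpr, scaled by TMM and tested with edgeR 4.0.16 (robust quasi-likelihood fit of all 6 libraries as 3 groups, 3 residual degrees of freedom, Benjamini-Hochberg adjustment over 16503 genes, threshold 0.05) in R 4.3.3. The script was tested on simulated data. SE is the absolute log2 fold change over the square root of F. Alternatives used limma 3.58.1, DESeq2 1.42.0, other scalings and filters, blocks, left-out libraries, and an offset fitted to each library on GC content and length of the longest transcript by natural splines with 5 degrees of freedom each. GC content and gene positions came from GENCODE 29, which held 57055 of the IDs, and 158 tested genes without a GC value took the mean trend of the library. Exact intervals cover counting error only, at the 95% level.

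The members and the 9 lists (114 entries) were chosen with earlier results of these data known. Named in each list were the called genes with the largest rise and fall, if their log2 CPM averaged 1 or more, and the 5 genes nearest to KDM1A were sought among those averaging 3 or more. One gene that this rule names is not reported here.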

Additional observations from a re-analysis of the deposited data

How the results depend on the processing

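Leaving out 1 library at a time leaves a lone sample that is assumed to vary like the other groups. It gave 9340 to 12578 called genes and 6 to 9 called members for SP2509 against untreated, 13550 to 14427 and 7 to 9 for siPIR against untreated, and 13298 to 13959 and 7 to 9 for siPIR against SP2509. HMG20B under SP2509 lost its call under RLE scaling (-0.23), no filter (-0.24), DESeq2 (-0.23) and without any of the 4 libraries compared. KDM1A in siPIR lost its call under the 1 CPM filter (edgeR adjusted p = 0.0573), DESeq2 (adjusted p = 0.495), RLE scaling, the fit of 4 libraries (edgeR adjusted p = 0.0667) and without any untreated or SP2509 library. KDM1A in siPIR against SP2509 gained a call in 9 of 19 alternatives, at 0.2 to 0.85. HDAC2 under SP2509 was called at 0.19 in the fit of 4 libraries (edgeR adjusted p = 0.0105), at 0.18 with the description-number block (0.0282), and at 0.2 without either siPIR library.

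Whether the replicate numbers of the titles pair the samples could not be decided. Libraries with the same title number deviated from their group means with r of -0.0176 for SP2509 and -0.0277 for siPIR against untreated cells. For siPIR against SP2509 r was 0.0627. By description number the values were -0.0176, 0.0277 and -0.0627. Within a group the deviations of the libraries mirror each other, so these r values cannot show if samples were paired. With a replicate block, edgeR called 11179 genes instead of 11316 for SP2509, 14136 instead of 14212 for siPIR, and 13816 instead of 13920 for siPIR against SP2509. The description-number block gave 12016, 13533 and 13199 in the same order. Under the replicate block HMG20B in SP2509 (-0.25, edgeR adjusted p = 0.054) and KDM1A in siPIR (-0.22, edgeR adjusted p = 0.0519) were not called.

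The GC offset, alone and with the replicate block, left 4 members called in siPIR against untreated instead of 8, and turned HMG20B under SP2509 to 0.1. With the offset alone 5 instead of 14 neuronal targets, 5 instead of 8 flavin genes and 0 instead of 1 inhibitor response genes were called in siPIR, and under total counts 6 instead of 10 SIN3 genes were called in SP2509. In siPIR against untreated the offset turned KDM1A to 0.53, KDM1B to -0.04 (-0.05 with the block), RCOR2 to 0.03, RCOR3 to -0.16, HDAC2 to -0.14, PHF21A to 0.32, HMG20B to 0.17 and JADE2 to 0.06 (0.05 with the block). In siPIR against SP2509 it turned RCOR3 to -1.56, HDAC2 to -0.3, HMG20B to 0.07 and KDM1B to -0.99 (-1 with the block). The offset removes what runs with GC content by construction; the cause of the other changes was not tested. Signs also turned for HDAC2 under SP2509 with upper-quartile scaling (-0.05) and total counts (-0.21), for KDM1A (-0.02) and KDM1B (-0.09) in siPIR against SP2509 with total counts, for KDM1B there with the description-number block (-0.04) and without siPIR replicate 1 (-0.03, and 0.3 without siPIR replicate 2), for PHF21A in siPIR with that block (0.02) and without siPIR replicate 1 (0.04, and -0.39 without siPIR replicate 2), and for PIR under SP2509 without SP2509 replicate 2 (0.05, and -0.28 without SP2509 replicate 1).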
